A study of Moricandia arvensis and Moricandia suffruticosa and Moricandia moricandioides with 78 samples.

Results

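The light-harvesting proteins and the nuclear-encoded subunits of photosystems I and II were followed in the mature-leaf transcriptome of 3 Moricandia species under soil drying and rewatering. The members are 43 Arabidopsis locus IDs, of 33602 features in each library. They were chosen by gene identity, with earlier results of these data known. They comprise 6 Lhca genes, 16 Lhcb genes and PSBS counted together, 12 genes of photosystem I (PSI) subunits and 9 genes of photosystem II (PSII) subunits. The counts of the 5 very similar Lhcb1 genes were summed into a single value, so that 39 member values were tested. All 39 passed the filter on low counts in every comparison.

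The plants were of one seed line per species: M. moricandioides (Mmo, Osnabruck 04-0393-10-00), with C3 photosynthesis, and M. arvensis (Mav, IPK Gatersleben MOR1) and M. suffruticosa (Msu, Royal Kew Garden 0105433), both with C2 photosynthesis, an intermediate between C3 and C4. Water was withheld from the drought groups until stomatal conductance (Gs) stood at 50% (T1) or 10% (T2) of its starting value, and the rewatered group (RW) was sampled after plants dried to T2 had been watered again. RW is labelled 100% Gs, and no measured conductance was used here to check that label. Control plants were watered throughout and were sampled at T0, before any drying, and beside each drought group. The drought groups held 3, 1 and 3 libraries of Mmo, Mav and Msu at T1, 3, 5 and 4 at T2, and 4, 4 and 4 at RW. The matching control groups held 4 of each species at T1, 2, 5 and 3 at T2, and 4, 5 and 3 at RW, and the T0 controls held 4, 5 and 4. Msu is a tetraploid, and the reads of every species were assigned to Arabidopsis coding sequences, so that a value belongs to the Arabidopsis gene a Moricandia read resembled most and copies of a gene are not separated with certainty.

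Light-harvesting complex (LHC) proteins bind chlorophyll a, chlorophyll b and carotenoids in the thylakoid membrane and pass the absorbed energy to the reaction centres, the Lhca proteins at PSI and the Lhcb proteins at PSII. The reaction-centre cores are encoded in the plastid, while the LHC proteins and the peripheral subunits described here are encoded in the nucleus and imported. In leaves these messages are among the most abundant, they are produced in the light under the control of GOLDEN2-LIKE (GLK) transcription factors and the circadian clock, and PSBS senses lumen acidity and switches excess light energy into heat.

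The 78 libraries held between 22346621 and 41675513 estimated counts. Of the 116 pairs of libraries within a group, 20 differed by 1.61 to 3.92 times the variance that counting error gives, whereas the next pair stood at 6.49. These near-identical libraries were labelled as separate biological replicates and were kept apart, so the p-values measure the spread between the libraries, part of which may be technical. Counts of called members are therefore also given with the near-identical libraries of a group summed, wherever that moved them by over 1.5 times. For these fits, and for those with a library left out, the share of all features called is not given. Nor was it counted how often all features lie outside the range of another group, so such counts of members are descriptions. Compared with the T0 libraries, 7 libraries labelled Msu were closest to Mmo, with correlations across features of 0.843 to 0.851 with Mmo and 0.802 to 0.813 with Msu. They are T2 drought S5s and S8s, T2 control S33c and S36c and all 3 RW controls. On 62 features over 5 log2 units higher in Msu than in Mmo at T0, the T2 libraries among them had medians of 0.57 to 1.05 log2 CPM. The RW controls had -2.21 to -1.28, beside -3.54 to -2.74 in all Mmo libraries and 3.50 to 3.81 in Msu at T0. On 50 features higher in Mmo by that gap, the 7 libraries had 2.66 to 2.93, so they were not plainly of either species. S5s and S8s were each near-identical to S33c and S36c, which carry the other treatment label. An eighth library, Mav T2 drought A37s, was slightly closer to Mmo (0.677) than to Mav (0.664). Among the Mmo controls, M6c at T1 and M21c and M24c at RW carried the seed storage gene CRA1 at 114, 79.9 and 91.9 CPM, against 0.0352 CPM or less in the other controls of these groups. Levels are given in CPM, counts relative to a library total that was scaled by the trimmed mean of M values (TMM), and they are compared only within a gene.

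The members together took up 19.2% ± 1.99 (SD, n = 5) of all counts in Mav at T0, 15.2% ± 0.986 (n = 4) in Mmo and 13.2% ± 0.589 (n = 4) in Msu. In Mav at T2 the share was 5.11% ± 0.969 (n = 5) in droughted plants and 13.5% ± 1.33 (n = 5) in controls, and the highest droughted library (6.71%) lay under the lowest control (11.5%). After rewatering it was 13.5% ± 0.728 (n = 4) in formerly droughted Mav and 15.2% ± 0.914 (n = 5) in controls. In Mmo the shares were 8.24% ± 0.504 (n = 3) in droughted plants and 10.3% ± 4.47 (n = 4) in controls at T1, 9.51% ± 2.27 (n = 3) and 12.8% ± 1.74 (n = 2) at T2, and 13.1% ± 2.04 (n = 4) and 12.9% ± 3.51 (n = 4) at RW, in the same order. At T1 the Mmo libraries overlapped, at 7.71% to 8.71% in droughted plants and 7.64% to 16.9% in controls. The median of these controls was 8.23%. At T2 the highest droughted Mmo library (10.9%) lay under the lowest control (11.6%). The plot of the share by library shows Mav T2 as the point at which all droughted libraries stood furthest below their controls. In bulk leaf RNA, fewer mesophyll cells and less of these messages per cell cannot be told apart.

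**Figure D1:**
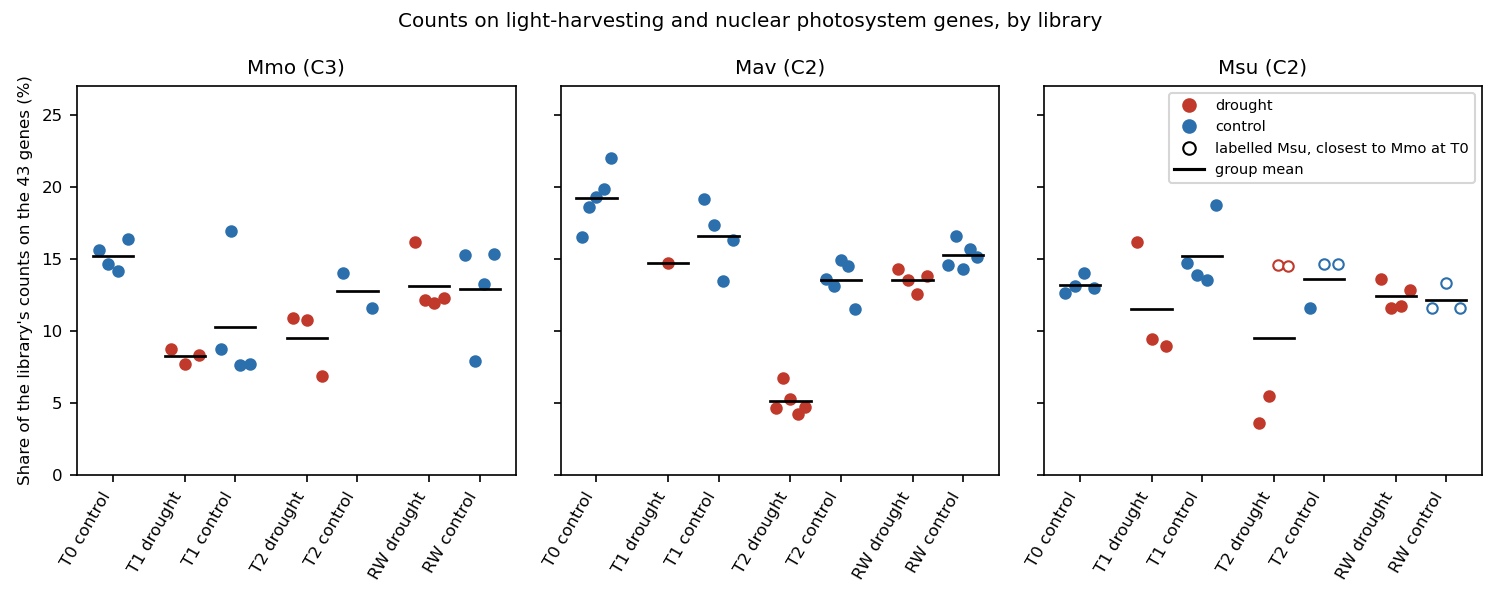
Share of all counts taken by the 43 genes in each library, in percent, by species, time point and treatment (points: libraries, lines: group means). The 5 droughted Mav libraries at T2 sit between 4.21% and 6.71%, below the 11.5% to 14.9% of their controls, while the Msu T2 drought libraries fall into a pair at 3.62% and 5.45% and a pair at 14.5%.

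Severe drought (10% Gs) lowered nearly the whole module in Mav. Of the 39 members, 37 were lower in droughted than in control Mav at T2 (edgeR quasi-likelihood test, Benjamini-Hochberg adjusted p under 0.05 over all features tested) and none was higher, against 22% of all features called lower and 20% called higher. Of these, 32 were past a 2-fold decrease, against 16.6% of all features. The median log2 fold change of the members was -1.47, beside -0.01 over all features tested. In 32 of the 39, every droughted library lay below every control, and the exceptions were LHCB2.2, LHCB7, PSAD2, PSAF, PSAG, PSBO2 and PSBR. How many of all features showed such a separation was not counted. Left out in turn, no library changed the count of called members beyond the range of 36 to 37, and with near-identical libraries summed it was 36. Of the droughted libraries 4 came from sequencing lane 2 and 1 from lane 7, and of the controls 2 came from lane 1, 1 from lane 2 and 2 from lane 7. Without lane 7 the count was 33.

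All 6 Lhca genes, the antenna of PSI, were lower in droughted Mav, with a median log2 fold change of -1.41. LHCA4 (AT3G47470), which pairs with LHCA1 in a dimer carrying long-wavelength chlorophylls, had the lowest p-value of all members. Its levels were 1215, 1331, 1138, 1132 and 1237 CPM in droughted plants and 5277, 5706, 5658, 5015 and 4355 CPM in controls. The droughted libraries lay close together and far below every control, and the log2 fold change was -2.11 ± 0.16 (SE, adjusted p = 6.02e-06). LHCA6 (AT1G19150), one of the minor Lhca proteins that join PSI to the NADH dehydrogenase-like complex of the thylakoid, had the steepest fold change of the module (-2.66 ± 0.39, adjusted p = 0.000316). It was at 9.38 to 36.5 CPM in droughted plants and 75.4 to 192 CPM in controls. LHCA5 (AT1G45474), its partner in that linkage, fell by 1.38, LHCA1 (AT3G54890) by 1.43, LHCA3 (AT1G61520) by 0.80 and LHCA2 (AT3G61470) by 0.72 on the log2 scale.

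Among the Lhcb genes and PSBS, 11 of 12 were lower, with a median of -1.64. The summed LHCB1 genes (AT1G29920, AT1G29910, AT1G29930, AT2G34430 and AT2G34420), which build most of the trimeric major antenna of PSII, were at 7255, 13880.0, 9503, 6032 and 7297 CPM in droughted Mav and 33129.5, 32122, 37727, 34770.3 and 21905 CPM in controls. The groups did not overlap, although the droughted library A35s and the control A22c lay closer to each other than any other pair, and the log2 fold change was -1.86 ± 0.28 (adjusted p = 0.000349). Fitted one by one, the 5 genes had log2 fold changes of -1.42 to -2.72, but a read of one copy may have been assigned to another. LHCB2.1 (AT2G05100), LHCB2.2 (AT2G05070) and LHCB2.3 (AT3G27690), whose phosphorylation moves antenna between the photosystems in state transitions, fell by 2.07, 1.88 and 1.76. LHCB3 (AT5G54270), the third protein of the trimers, fell by 1.401.

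The monomeric antenna proteins that connect the trimers to the PSII core followed. LHCB5 (AT4G10340), known as CP26, was at 1842, 1975, 1596, 1509 and 1809 CPM in droughted Mav and at 6652, 7458, 8101, 8238 and 6346 CPM in controls. All droughted libraries stood far under all controls, with a log2 fold change of -2.08 ± 0.18 (adjusted p = 1.1e-05). The CP29 genes LHCB4.1 (AT5G01530), LHCB4.2 (AT3G08940) and LHCB4.3 (AT2G40100) fell by 1.69, 1.59 and 1.58, and the CP24 gene LHCB6 (AT1G15820) by 1.23. PSBS (AT1G44575) was at 707, 709, 649, 668 and 689 CPM in droughted plants and 1346, 1335, 1550.2, 1397 and 1213 CPM in controls, a log2 fold change of -1.002 ± 0.14 (adjusted p = 0.000205). Its droughted libraries lay within a narrow band, and A35s did not stand apart there. The exception of the class was LHCB7 (AT1G76570), a rare and little-studied member, at 41.7, 52.9, 45.6, 41.3 and 40.9 CPM in droughted Mav and 33.3, 66.9, 38.7, 47.3 and 26.6 CPM in controls (log2 fold change 0.06 ± 0.23, adjusted p = 0.857).

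All 12 PSI subunit genes were lower in droughted Mav, with a median log2 fold change of -1.45. PSAE2 (AT2G20260), a stromal subunit at the ferredoxin docking site, was at 96.5, 100.4, 111, 111 and 90.8 CPM in droughted plants and at 306, 261, 309, 319 and 223 CPM in controls. The groups were well apart (log2 fold change -1.48 ± 0.15, adjusted p = 2.8e-05), and PSAE1 (AT4G28750) fell by a like amount, 1.47. PSAD1 (AT4G02770), the other stromal docking subunit, fell by 0.96, while the rare PSAD2 (AT1G03130), at 2.99 ± 1.60 CPM in droughted plants and 9.17 ± 6.17 CPM in controls, fell by 1.63 with overlapping libraries. On the lumenal plastocyanin side, PSAN (AT5G64040) fell by 1.64 and PSAF (AT1G31330) by 0.85. PSAH2 (AT1G52230) and PSAH1 (AT3G16140), of the face at which PSI receives mobile PSII antenna, fell by 1.77 and 1.09, and PSAL (AT4G12800) and PSAO (AT1G08380) of the same face by 1.31 and 1.42. The edge subunits PSAK (AT1G30380) and PSAG (AT1G55670), beside the Lhca belt, fell by 1.48 and 1.07.

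Of the 9 PSII subunit genes 8 were lower, with a median log2 fold change of -1.47. PSBP1 (AT1G06680), PSBQ1 (AT4G21280) and PSBQ2 (AT4G05180), extrinsic proteins that stabilise the oxygen-evolving cluster, fell by 1.99, 1.81 and 1.94. PSBX (AT2G06520), a small membrane subunit, fell by 2.01. PSBO1 (AT5G66570), the main form of the manganese-stabilising protein, was at 2427, 3965, 2044, 1778 and 2436 CPM in droughted Mav and 7632, 6445, 7903, 7737 and 5418 CPM in controls, a log2 fold change of -1.47 ± 0.25 (adjusted p = 0.000723). Its paralogue PSBO2 (AT3G50820) was at 912, 1660.0, 1239, 877 and 934 CPM in droughted plants and 1123, 1223, 1446, 1169.6 and 1116 CPM in controls. The groups overlapped, 4 droughted libraries reaching at most 1239 CPM and A35s standing above every control (log2 fold change -0.11 ± 0.21, adjusted p = 0.702). PSBY (AT1G67740), PSBW (AT2G30570) and PSBR (AT1G79040) fell by 1.36, 1.203 and 0.61.

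The members did not fall in equal proportion. LHCB1 made up 17.8% ± 1.72 of the counts of all members in droughted Mav and 23.5% ± 1.31 in controls (n = 5 each), and the other Lhcb genes with PSBS made up 21.5% ± 0.531 and 24.5% ± 0.827. The Lhca genes took 17.5% ± 1.60 in droughted plants and 14.1% ± 0.952 in controls, the PSI subunits 19.7% ± 1.06 and 17.3% ± 0.314, and the PSII subunits 23.4% ± 0.795 and 20.6% ± 0.277. Within gene pairs, PSBO1 accounted for 68.9% ± 4.36 of the PSBO counts in droughted Mav and 85.1% ± 1.85 in controls, and PSAH2 for 61.4% ± 1.34 and 71.1% ± 3.60 of the PSAH counts. Both differences had p = 0.00794 in a two-sided exact permutation test, the smallest p that 5 against 5 allows, and an adjusted p of 0.0381 over 24 such tests. The droughted A28s and A44s, which were near-identical, were counted as separate libraries, and the tests were not repeated with them summed. The share of LHCB1.2 among the LHCB1 genes was 17.8% ± 3.60 in droughted plants and 22.7% ± 2.63 in controls (exact permutation p = 0.0317, adjusted p = 0.0951). Shares between copies depend on how reads with equally good matches were assigned, which was not given in the sources used here.

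**Figure D2:**
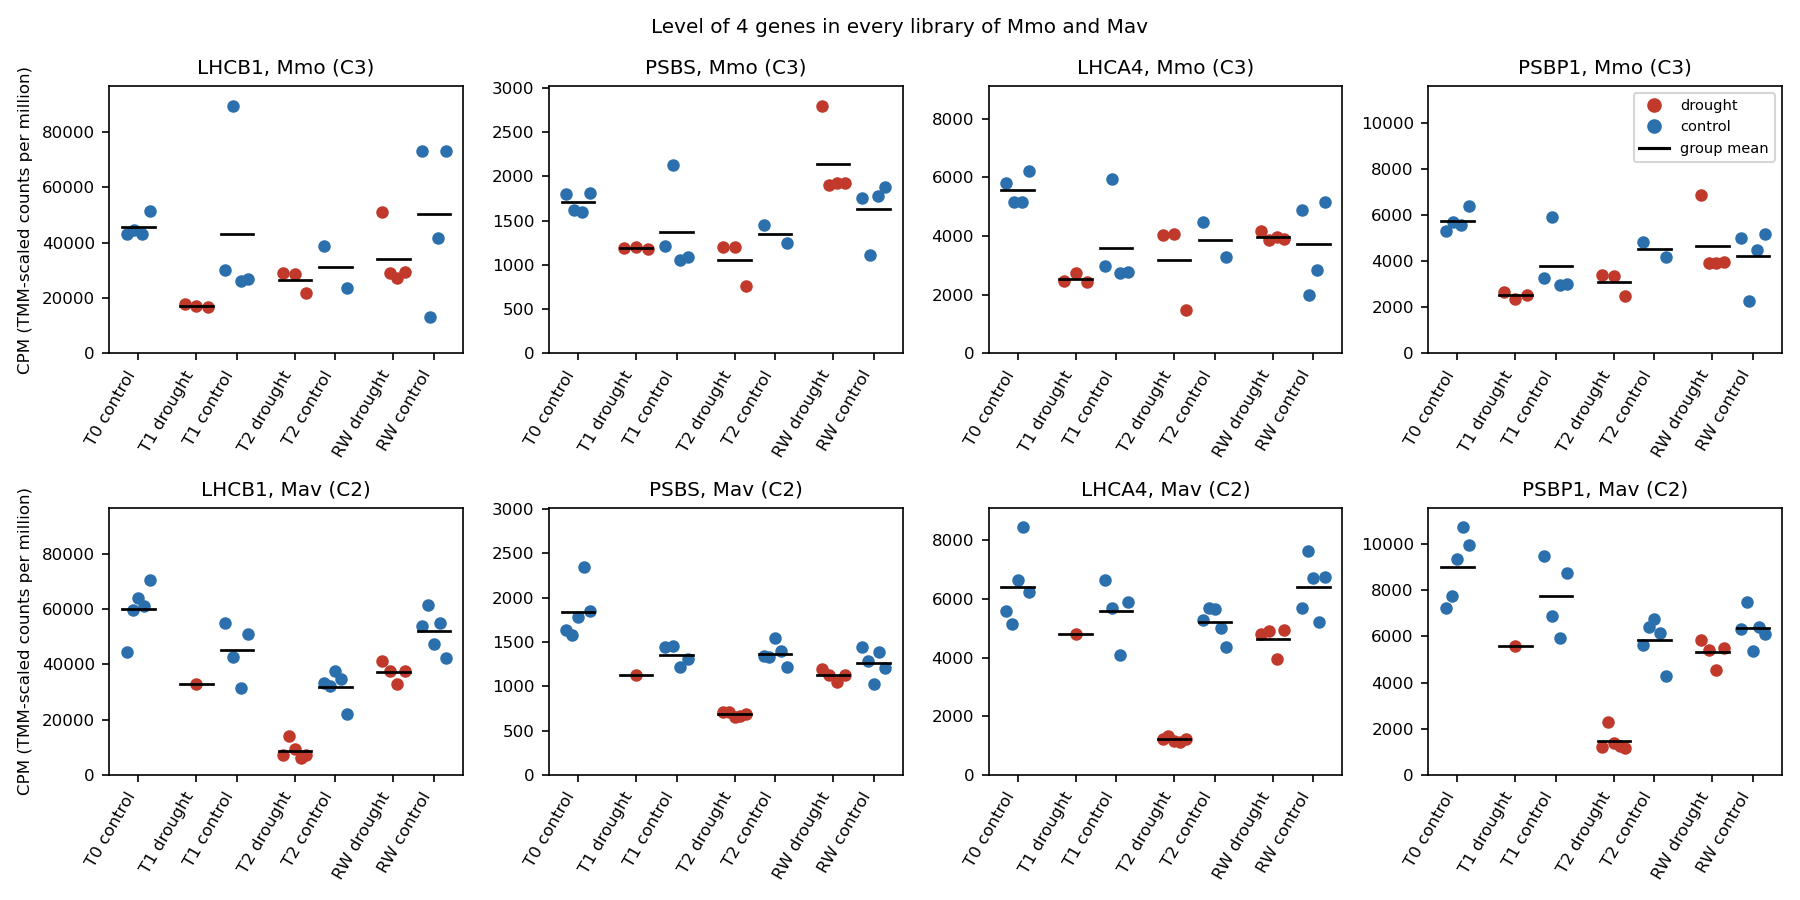
Level of LHCB1 (5 genes summed), PSBS, LHCA4 and PSBP1 in every library of Mmo and Mav, in TMM-scaled CPM (red: drought, blue: control, lines: group means). For LHCA4 in Mav the 5 droughted libraries at T2 lie between 1132 and 1331 CPM, under the 4355 to 5706 CPM of their controls, and the Mmo T1 control M6c stands apart at 89557 CPM of LHCB1.

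Genes that act around the antenna moved in the same Mav comparison. In the chlorophyll synthesis list 12 of 13 genes were lower, with a median log2 fold change of -1.78. PORB, the light-dependent protochlorophyllide reductase, was at 33.6 ± 11.5 CPM in droughted plants and 409 ± 123 CPM in controls (-3.61), and CAO, which makes chlorophyll b, fell by 1.89. Of 10 genes of electron transport and the ATP synthase, 7 were lower and none higher, FNR2 (ferredoxin-NADP reductase) falling by 2.11 and PETE1 (plastocyanin) by 3.68. In the list for import and insertion of LHC proteins 4 of 5 were lower, with CPFTSY (the chloroplast signal recognition receptor) falling by 1.15 and LTD (an LHC targeting factor) by 1.01. Among 4 regulators, GLK1, GLK2 and GUN1 fell by 0.97, 1.54 and 0.56, and HY5, a light-signalling factor, rose by 1.23.

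The LHC-like stress proteins did not share that direction. ELIP1, an early light-induced relative of the LHC proteins that binds pigments in stressed leaves, was at 2994, 3451, 1395, 4500.0 and 3014 CPM in droughted Mav and at 113, 223, 174, 271 and 89.8 CPM in controls. It rose by 4.13 on the log2 scale and SEP2 by 2.07, and none of the 6 genes fell, ELIP2, OHP1, OHP2 and SEP1 not passing the test. Among 9 genes of state transitions, photoprotection and cyclic flow, ZEP (zeaxanthin epoxidase) rose by 0.68, while PGRL1A (cyclic electron flow) fell by 2.296, VDE (violaxanthin de-epoxidase) by 1.66 and STN8 (a PSII kinase) by 1.11. Of the 8 plastid-encoded core genes 4 were higher and none lower, PSBA by 1.699 and PSBB by 1.17, with droughted libraries that overlapped the controls. The 8 genes summed to 150.1 to 1215 CPM in droughted plants and 162 to 357 CPM in controls. All plastid-encoded features together took 0.365% to 4.61% of counts in droughted Mav and 0.631% to 1.22% in controls. The near-identical droughted libraries A28s and A44s held 2.68% and 0.365%. Whether the core genes rose beyond this variation in plastid reads between libraries was not tested.

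Marker lists moved beside these changes. All 3 drought markers were higher, with RAB18 rising by 5.37, and the 3 summed to 5501 to 10913 CPM in droughted Mav and 110.1 to 664 CPM in controls. All 5 senescence genes were higher, SAG12 by 8.47 and PPH by 1.96, with sums of 1332 to 2294 CPM in droughted plants and 237 to 330 CPM in controls. Both mesophyll markers, RBCS1A and RCA, were lower by 2.45 and 0.84, and summed to 6476 to 10337 CPM in droughted plants and 14211 to 25713 CPM in controls. Of 4 epidermis markers, CER6 was higher and ATML1 and PDF1 lower, with sums of 205 to 286 CPM and 149 to 235 CPM, and of 4 guard-cell markers FAMA was higher and KAT1 lower, with sums of 45.3 to 61.7 CPM and 40.3 to 49.8 CPM. Neither of the 2 phloem companion-cell markers was called (sums of 270 to 461 CPM and 204 to 372 CPM). The root list summed to 1.87 to 3.60 CPM in droughted plants and at most 0.118 CPM in controls, with COBL9 at 0, and the flower and seed lists stayed under 1.27 CPM in both. Among 8 clock genes PRR9 and GI were higher and PRR7 lower. The part of senescence, cell composition or the clock in the fall of the members was not tested.

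After rewatering, none of the 39 members differed between formerly droughted and control Mav by edgeR (unadjusted p under 0.05 in 7 members, all lower, and 5 members called lower by DESeq2). Over all features 0.0968% were called lower and 0.178% higher. The members' log2 fold changes had a median of -0.29 and ran from -1.37 for LHCB2.2 to 0.43 for PSBQ1, and 34 of 39 were below 0. LHCB1 was at 41124, 37468, 33004 and 37716 CPM in rewatered plants and 53813, 61535, 47225, 55011 and 42270.1 CPM in controls, all rewatered libraries lying below all controls (-0.47 ± 0.22, adjusted p = 0.297). PSBS was at 1194, 1128, 1049 and 1133 CPM in rewatered plants and 1440, 1287, 1022, 1383 and 1206 CPM in controls, which overlapped. Of the rewatered libraries A40s was the lowest, with 31 members under all controls, against 8 to 13 in the other 3. Without the control A13c 1 member was called.

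The drought response itself differed between the stages. The log2 fold change after rewatering minus that at T2 was above 0 and called for 27 members and below 0 for none, against 15.9% and 16.4% of all features, and 23 were past a 2-fold difference (14.1% of all features). The median of this difference was 1.09 over the members and -0.02 over all features. LHCA4 (1.63 ± 0.22, adjusted p = 3.68e-05), LHCB5 (1.77 ± 0.24, adjusted p = 4.64e-05) and PSBQ2 (1.95 ± 0.33, adjusted p = 0.000249) had the lowest p-values. LHCA4, near 1200 CPM in droughted leaves at T2, was at 4788, 4895, 3938 and 4923 CPM in rewatered plants and 5677, 7635, 6701, 5202 and 6739 CPM in their controls. LHCB1 had a difference of 1.37 and PSBS of 0.81. The rewatered group held 2 distinct profiles, and with near-identical libraries summed 14 members were called, among them LHCA4, LHCB5, PSBQ2 and PSBS but not LHCB1. The chlorophyll synthesis list had 11 of 13 genes called above 0 in this difference and the senescence list 5 of 5 below 0. By class, 3 of 6 Lhca genes, 9 of 12 Lhcb genes with PSBS, 8 of 12 PSI genes and 7 of 9 PSII genes were called. Not called were, among others, LHCB7 (-0.45) and PSBO2 (0.20), which had not passed the test at T2 either.

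**Figure D3:**
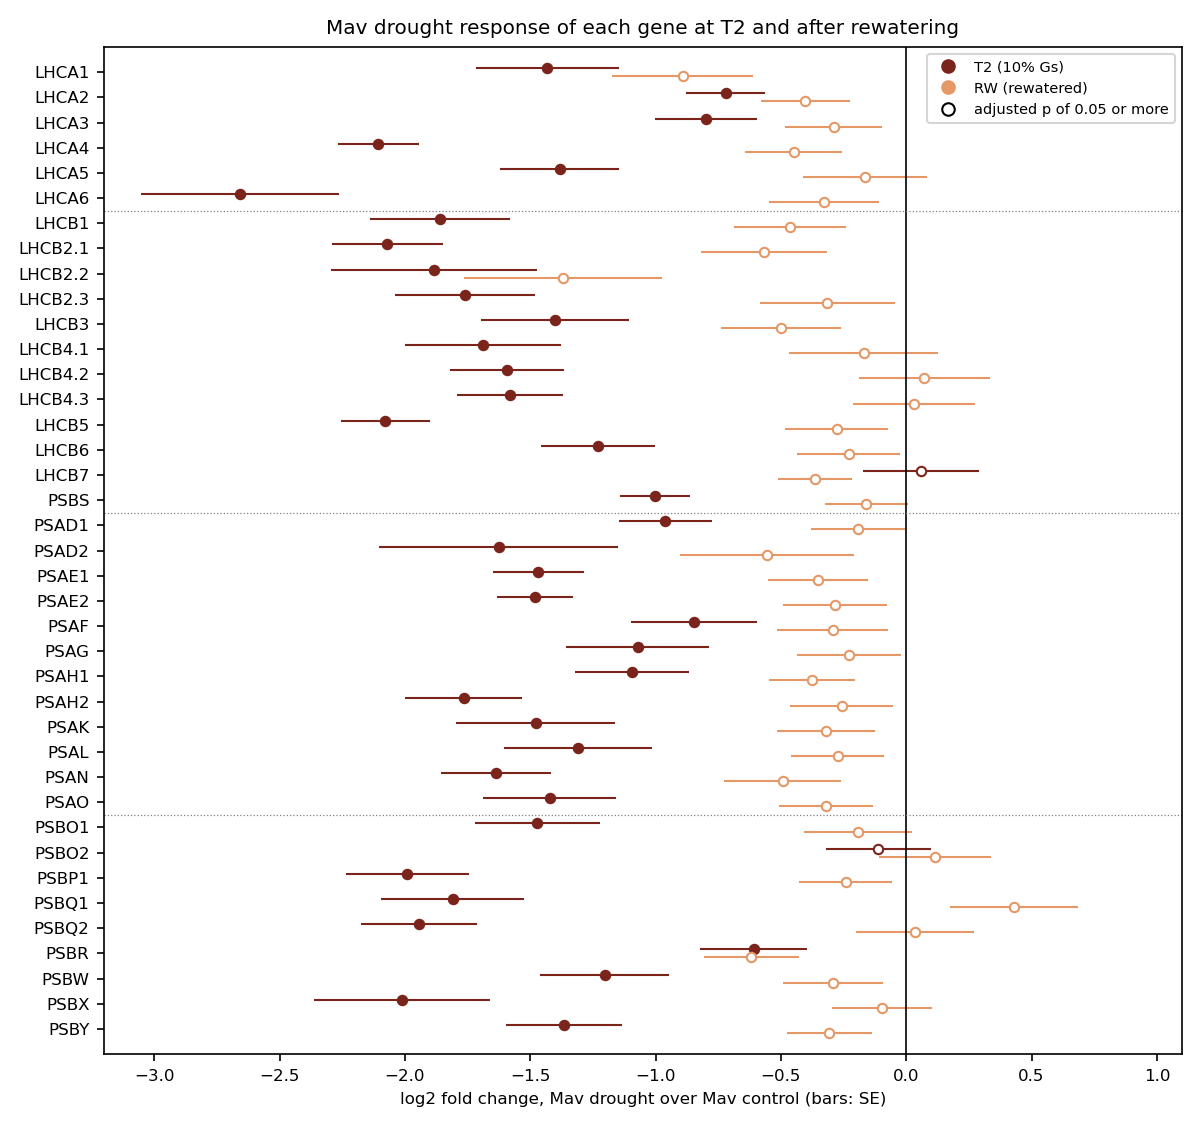
Log2 fold change of each member, droughted over control Mav, at T2 (dark red) and after rewatering (orange), with SE as bars and open points where the adjusted p is 0.05 or more. At T2 all members but LHCB7 and PSBO2 are called lower, from -0.61 (PSBR) to -2.66 (LHCA6), while after rewatering all points are open and their median is -0.29.

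In Mmo severe drought called a single member. LHCA5 was at 62.1, 60.9 and 80.7 CPM in droughted plants and 176 and 185 CPM in controls, without overlap (-1.42 ± 0.21, adjusted p = 0.0286), against 2.33% of all features called lower and 2.27% higher. A further 36 members had log2 fold changes below 0. In 31 of the 39 all 3 droughted libraries lay below both controls, a separation that was not counted over all features. With 2 controls, only 5 members had an unadjusted p under 0.05, and DESeq2 called 5. The median was -0.65, beside 0.02 over all features. LHCB1 was at 29241, 28719 and 21688 CPM in droughted Mmo and 38857 and 23738 CPM in controls (-0.25 ± 0.52, adjusted p = 0.814), and PSBS at 1199, 1206 and 759.9 CPM in droughted plants and 1451 and 1251 CPM in controls (-0.37 ± 0.33, adjusted p = 0.553). The droughted library M20s was lower than M17s and M19s in every member but LHCA5, with a median log2 ratio to the control mean of -1.30, against -0.35 and -0.38. LHCB7 went the other way, at 70.9, 73.9 and 59.6 CPM in droughted plants and 37.3 and 31.1 CPM in controls (0.98 ± 0.20, adjusted p = 0.0559). Without M20s 10 members were called, and without any other library of the comparison (M17s, M19s, M14c or M16c) none was. The calls over all features in these fits are not given. The near-identical libraries M17s and M19s left this comparison with 2 distinct droughted profiles, and with them summed no member was called. Of the markers, RAB18 was higher by 5.37 and SAG12 by 6.08 in droughted Mmo, 1 of 3 drought and 1 of 5 senescence genes. The 3 drought markers summed to 1927 to 3242 CPM in droughted plants and 45.1 to 151 CPM in controls. The 5 senescence genes summed to 709 to 903 CPM in droughted plants and 402 to 478 CPM in controls. Of the LHC-like stress proteins ELIP1 was higher by 3.00 (edgeR adjusted p = 0.0432).

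At T1 (50% Gs) 4 members were lower and 1 higher in droughted Mmo, against 17.1% and 14.5% of all features. In either direction 12.8% of the members were called, against 31.7% of all features, so that the module was called less often than features at large. All 4 controls and 1 droughted library came from sequencing lane 5, and 2 droughted libraries came from lane 6. LHCA5 was at 70.8, 71.2 and 70.8 CPM in droughted plants and 177, 209, 133 and 128 CPM in controls (-1.21 ± 0.20, adjusted p = 0.00454). LHCB4.1 was at 271, 283 and 263 CPM in droughted plants and 688, 1541, 654 and 659 CPM in controls (-1.73 ± 0.36, adjusted p = 0.0111), and LHCB2.2 at 77.9, 72.5 and 73.2 CPM and 158, 418, 140.1 and 137 CPM (-1.54 ± 0.44, adjusted p = 0.0335). PSAN fell by 0.63. These 4 lay below all controls. The drought group held 2 distinct profiles, M7s and M12s being near-identical, as were the controls M9c and M10c, and with these summed all 5 calls were lost (adjusted p = 0.0512 for LHCA5). LHCB7 was the member that rose, with 61.9, 55.7 and 62.9 CPM in droughted plants and 42.6, 34.6, 37.2 and 34.2 CPM in controls (0.68 ± 0.11, adjusted p = 0.00447). In the same plants 6 of 13 chlorophyll synthesis genes were lower and none higher, and 3 of 6 LHC-like stress genes (ELIP1, OHP1 and SEP2) were higher. The 5 senescence genes summed to 1111 to 1418 CPM in droughted Mmo and 283 to 537 CPM in controls, with 4 of them called higher, and all 3 epidermis markers tested were lower, the list of 4 summing to 36.6 to 53.8 CPM in droughted plants and 107 to 122 CPM in controls. Their part in the members' changes was not tested.

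The T1 control M6c stood apart from the other T1 controls of Mmo. The members took 16.9% of its counts and 7.64% to 8.75% in M5c, M9c and M10c. In Mmo at T0 they took 14.2% to 16.4%, so that M6c was the T1 control nearer to T0 in this share. Which of the T1 controls were unusual was not settled. LHCB1 was at 17861, 17108 and 16870.2 CPM in droughted Mmo and at 30294, 89557, 26214 and 26902 CPM in controls M5c, M6c, M9c and M10c, so that every droughted library lay below every control while the adjusted p stayed above the threshold (-1.35 ± 0.54, adjusted p = 0.0941). PSBS was at 1186, 1200.0 and 1178 CPM in droughted plants and 1208, 2127, 1059 and 1093 CPM in controls. Without M6c 22 members were called, while without the droughted libraries M7s, M8s or M12s 2, 3 and 2 were. How many of all features were called in these fits is not given, so the rise to 22 need not be particular to the members. Without scaling factors the median log2 fold change of all features was 0.38, against -0.02 with them.

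After rewatering of Mmo none of the members was called by edgeR, against 0.108% of all features higher and 0.144% lower, 2 members having an unadjusted p under 0.05 and DESeq2 calling 2. LHCB1 was at 51179, 29111, 27149 and 29546 CPM in rewatered Mmo and 73304, 12971, 41776 and 73069.6 CPM in controls. PSBS was at 2795, 1896, 1919 and 1919.5 CPM in rewatered plants and 1758, 1106, 1781 and 1877 CPM in controls. For LHCB1 the groups overlapped widely, and for PSBS all rewatered libraries lay above all controls (0.37 ± 0.25, adjusted p = 0.437). M26s, M27s and M28s were near-identical, as were the controls M21c and M24c, so that 2 distinct rewatered profiles stood against 3 distinct control profiles. Without the control M23c 1 member was called. All rewatered libraries came from sequencing lane 7 and all controls from lane 6, so that lane and treatment cannot be told apart here. The difference between the RW and T2 responses of Mmo was called for no member (5 with an unadjusted p under 0.05, 3 by DESeq2), against 0.834% of all features called higher and 1.04% lower.

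**Figure D4:**
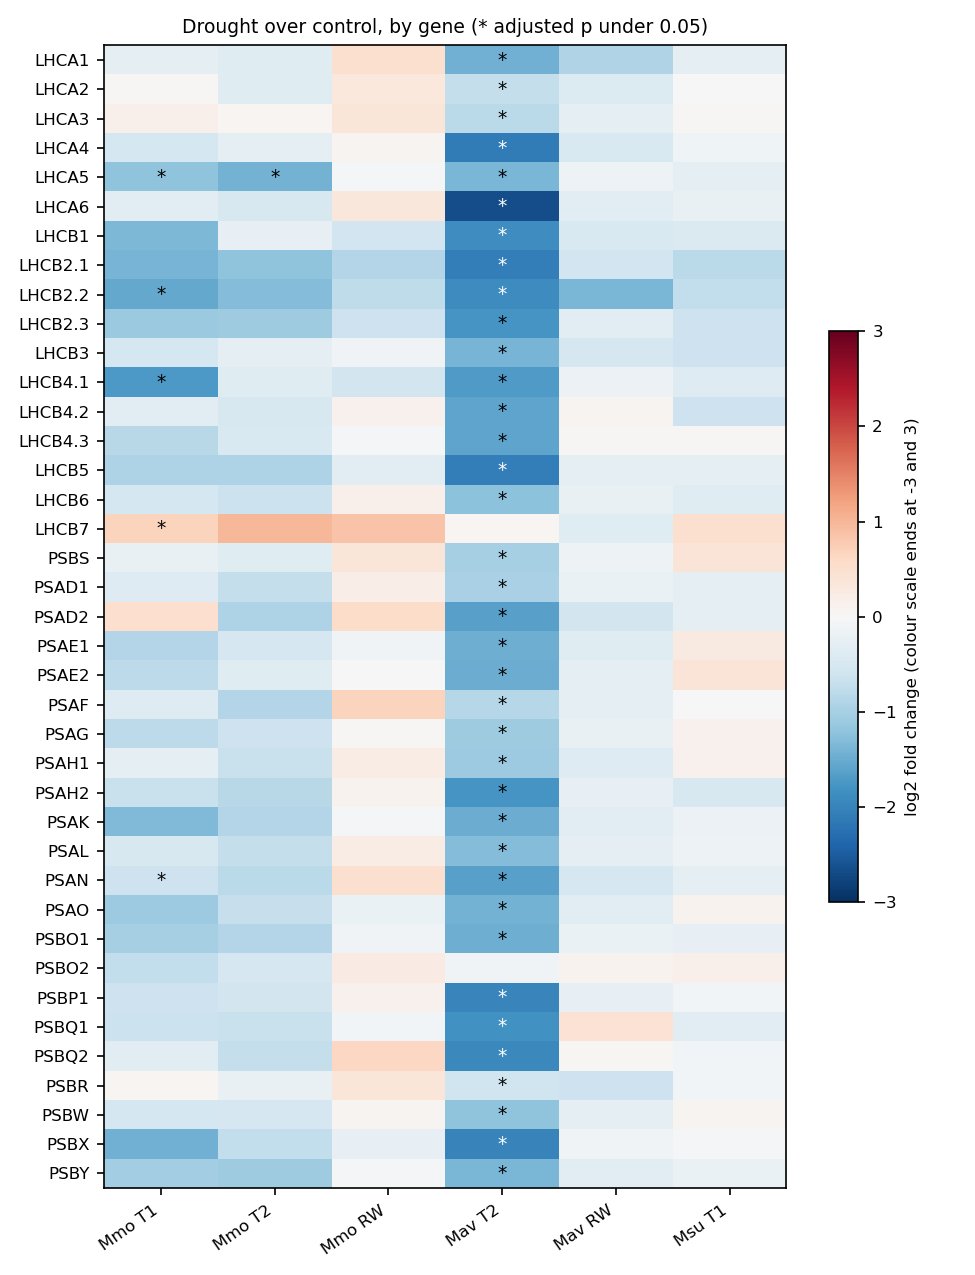
Log2 fold change, drought over control, of each member in 6 comparisons (colour, scale ending at -3 and 3, asterisk: adjusted p under 0.05). The Mav T2 column is blue with 37 asterisks, whereas LHCB7 is red or near white in Mmo T1, Mmo T2, Mmo RW, Mav T2 and Msu T1.

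Whether the T2 response differed between Mmo (C3) and Mav (C2) was tested as the Mmo log2 fold change minus the Mav one. With 1 line of each species, species and type of photosynthesis cannot be told apart. Of the 39 members 2 were called, both with the smaller fall in Mmo, against 2.75% of all features called higher and 2.55% lower, a share that is near that of all features. They were PSAE2 (1.11 ± 0.27, adjusted p = 0.0298), at 348, 335 and 247 CPM in droughted Mmo and 377 and 411 CPM in its controls, and LHCA4 (1.802 ± 0.46, adjusted p = 0.0335), at 4032, 4062 and 1470.4 CPM in droughted Mmo and 4471 and 3286 CPM in its controls. For LHCA4 only M20s fell outside its controls, whereas all droughted Mav libraries did so by a wide margin. The difference was above 0 in 36 members, with a median of 0.82 beside 0.06 over all features, and an unadjusted p under 0.05 was found in 15 of them. LHCB1 had a difference of 1.60 ± 0.53 (adjusted p = 0.0936). Of the related lists, 3 of 13 chlorophyll synthesis genes (CHLD, PORB and PORC) were called above 0 and 3 of 5 senescence genes (NYE1, NYC1 and PPH) below 0. Its copies LHCB1.1, LHCB1.2 and LHCB1.3, fitted singly, gave 2.01 to 2.699 with adjusted p of 0.0111 to 0.0212, and LHCB1.4 and LHCB1.5 gave 0.99 and 0.89 with adjusted p of 0.303 and 0.345. Without A35s 8 members were called, without M20s 7 and without A22c 4. With near-identical libraries summed none was called. Without A9c, A15c or A39s 1 was called, and without A24c, A28s, A44s, M14c, M16c, M17s or M19s none was.

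Droughted Mmo set directly against droughted Mav at T2 had 14 members higher and none lower, against 21.3% and 19.9% of all features, and 7 were past 2-fold (17% of all features). PSAE2 was 3.03-fold higher, with the Mmo values above and 90.8 to 111 CPM in Mav (log2 fold change 1.60 ± 0.18, adjusted p = 0.000197). LHCB4.2 was at 4155, 3984 and 2696 CPM in Mmo and 1101, 1781, 979, 1131 and 1093 CPM in Mav (1.56 ± 0.28, adjusted p = 0.00221). PSBQ2 was at 1266, 1227 and 728 CPM in Mmo and 302, 573, 388, 289 and 296 CPM in Mav (1.53 ± 0.30, adjusted p = 0.00346). For all 3 genes the lowest droughted Mmo library, M20s, still lay above the highest Mav library, A35s. LHCB1 differed by 1.58 and PSBS by 0.62. Without M17s or M19s 6 members were called and without A37s 9, and with near-identical libraries summed PSAE2, LHCB4.2 and PSBQ2 were. The Mmo libraries came from lane 6 and the Mav libraries from lanes 2 and 7, so that lane and species cannot be told apart. In the same pair of groups 11 of 13 chlorophyll synthesis genes were higher, 4 of 5 senescence genes lower and 6 of 8 clock genes higher in Mmo, and the part of these in the members' difference was not tested.

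Among the T0 controls single members differed between species, but all Mmo libraries came from lane 5, all Msu libraries from lane 3 and the Mav libraries from lanes 1 and 7, so that lane and species cannot be told apart. In Mmo over Mav at T0, 1 member was higher and 8 were lower, against 21.2% and 22.7% of all features, so that the module was not called more often than features at large. PSBO2 was at 2515, 3024, 2820.2 and 2389 CPM in Mmo and 1262, 1279, 1239, 1477 and 1598 CPM in Mav (0.99 ± 0.17, adjusted p = 0.000926). PSBX was at 1383, 1414, 1265 and 2279 CPM in Mmo and 2964, 3069.8, 4009.9, 4786 and 5062 CPM in Mav (-1.31 ± 0.26, adjusted p = 0.00225). LHCB4.1 was at 829, 761, 693 and 1417 CPM in Mmo and 1510.1, 1844, 2004, 2808 and 2827 CPM in Mav (-1.23 ± 0.28, adjusted p = 0.00534). None of these groups overlapped, although the Mmo library M12c came close to Mav in the last gene. PSAK was lower in Mmo by 1.03, and LHCB2.3, PSAE1, PSBP1, PSBQ1 and PSBQ2 by 0.62 to 0.82.

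LHCB1 was at 43333, 44666, 43201 and 51455 CPM in Mmo at T0 and 44396, 59765, 64101, 61128 and 70512 CPM in Mav, with overlap (-0.38 ± 0.20, adjusted p = 0.157), and PSBS at 1804, 1618, 1601 and 1809 CPM in Mmo and 1631, 1576, 1785, 2343 and 1848 CPM in Mav. Of 8 families, 3 had copy shares that passed the test for a difference between the 2 species, with all libraries counted as separate. PSBO1 made up 73.99% ± 2.88 of PSBO counts in Mmo and 88.2% ± 0.816 in Mav, LHCB4.2 85.6% ± 2.60 and 69.03% ± 2.60 of the LHCB4.1 and LHCB4.2 counts, and PSAE1 79.4% ± 1.02 and 85.0% ± 0.756 of the PSAE counts. Each had p = 0.00794 in the two-sided exact permutation test, the smallest that 4 against 5 allows, and an adjusted p of 0.0381. This test counted the near-identical M3s and M4s as separate libraries and was not repeated with them summed. The copy shares of LHCB1, PSAH, PSAD, PSBQ and LHCB2 did not pass, with adjusted p of 0.0545, 0.0545, 0.381, 0.542 and 0.944. Without M3s, M4s or A46 the count of called members was 4, 4 and 5, and with the near-identical M3s and M4s summed PSBO2, PSBX, LHCB4.1 and PSAK were called. Among the T1 controls 6 members were lower in Mmo than in Mav and none higher, against 17.5% and 17.9% of all features, with PSAD2 (-1.51), PSAN (-1.21) and PSAF (-0.96) at the lowest p. Without M6c 29 were called, without M5c, M9c or M10c 2, without A3c 3 and with M9c and M10c summed 2, each count given without that over all features. These controls came from lane 5 in Mmo and lane 1 in Mav.

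Of Msu at T0 no library was in doubt. Mmo had 10 members higher and 2 lower than Msu, against 23.8% and 22.7% of all features. PSBO2 was at 2515, 3024, 2820.2 and 2389 CPM in Mmo and 1022, 1114, 1001 and 1096 CPM in Msu (1.37 ± 0.14, adjusted p = 7.05e-05). LHCB6 was at 4516, 3835, 3496 and 4463 CPM in Mmo and 2203, 2406, 2252 and 2303 CPM in Msu (0.86 ± 0.14, adjusted p = 0.00108), and PSAE2 at 479, 526, 464 and 687 CPM and 261, 279, 338 and 277 CPM (0.93 ± 0.18, adjusted p = 0.00222). All Mmo libraries lay above all Msu libraries in these genes. PSAD2 was at 4.53, 1.84, 2.12 and 3.51 CPM in Mmo and 15.9, 18.97, 12.5 and 16.4 CPM in Msu (-2.38 ± 0.31, adjusted p = 0.00029), and LHCB4.1 was lower by 0.84. Without S38, S39 or S43, which were near-identical to each other, 6 members were called, and with near-identical libraries summed only PSBO2 and PSAD2 were.

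Mav, the other C2 species, had 18 members higher and 2 lower than Msu at T0, against 12.8% and 11.2% of all features. PSAH2 was at 1866, 1657, 2728, 2440.2 and 3273 CPM in Mav and 875, 903, 804 and 879 CPM in Msu (1.46 ± 0.22, adjusted p = 0.00173). LHCB2.3 was at 9397, 8216, 9416, 12201 and 13672 CPM in Mav and 4510.1, 4798, 5616 and 4724 CPM in Msu (1.103 ± 0.21, adjusted p = 0.00469), and PSAG at 3057, 2690.3, 3470.4, 4109 and 4482 CPM and 1789.7, 1863, 1865 and 1812 CPM (0.96 ± 0.19, adjusted p = 0.00608). Every Mav library lay above every Msu library in these genes, and LHCB1 was higher by 0.74 in Mav. The 2 lower members were PSAD2 (-1.58 ± 0.21, adjusted p = 0.000932) and LHCB7 (-0.87 ± 0.22, adjusted p = 0.0179), the second at 31.6, 25.5, 27.4, 47.1 and 23.5 CPM in Mav and 60.5, 62.2, 41.2 and 62.9 CPM in Msu. The order of LHCB1 at T0 was thus Mav, Mmo, Msu by mean, Mmo and Mav not passing the test, and the calls against Msu not lasting with near-identical libraries summed. PSBS differed in none of the 3 pairs (adjusted p = 0.714 for Mmo over Mav, 0.848 for Mmo over Msu and 0.893 for Mav over Msu). Without S38, S39 or S43 8 members were called and without A48 13. With S38, S39 and S43 summed PSAD2 alone was called. All 18 calls of a higher level in Mav were thus lost (edgeR adjusted p = 0.0541 for PSAH2). PSAD2 is the rare copy, PSAD1 holding 99.9% of the PSAD counts in Mav at T0, and the assignment of reads between the copies was not tested.

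**Figure D5:**
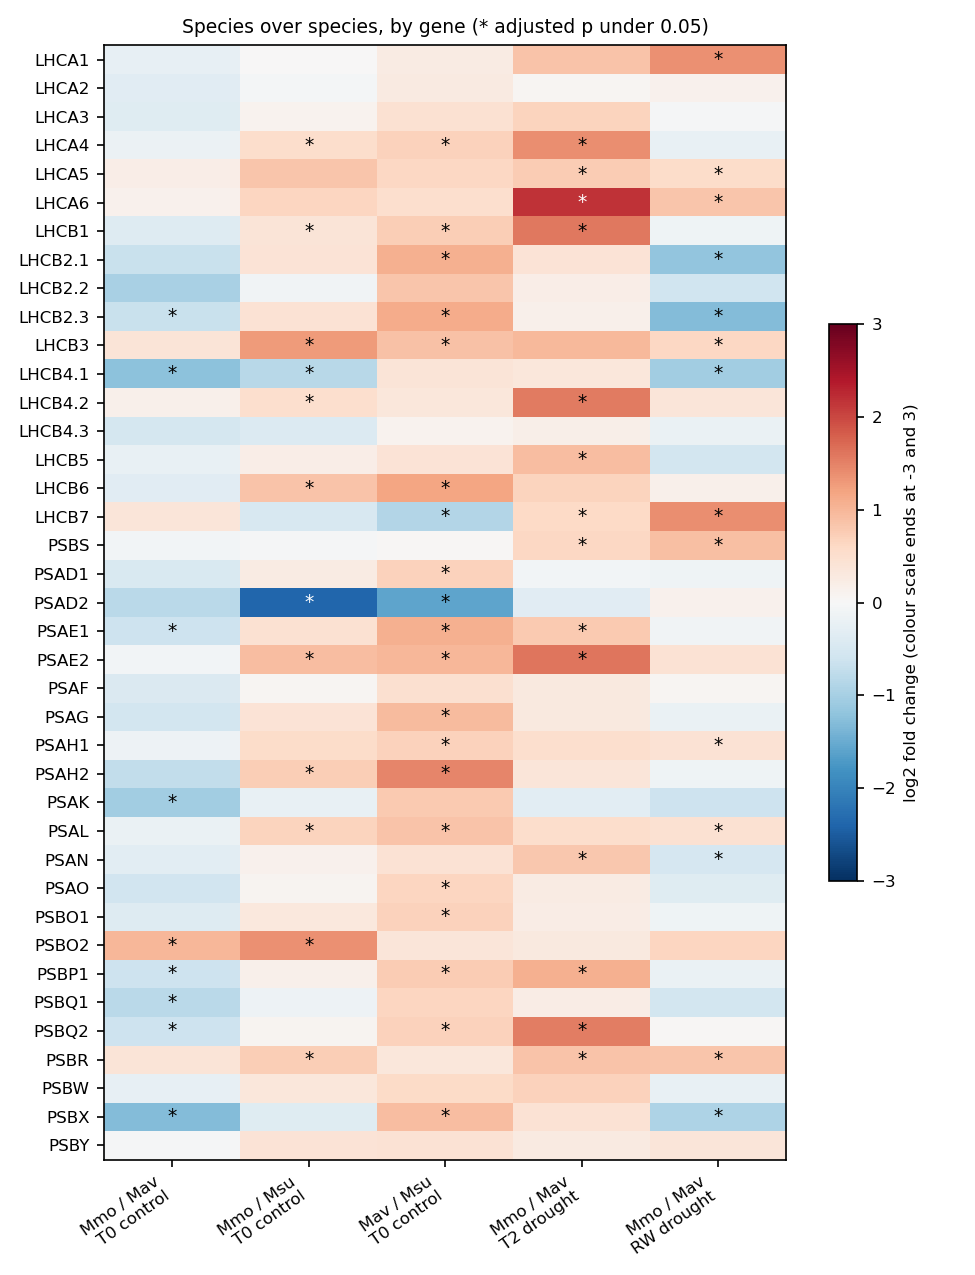
Log2 fold change between species of each member in 5 comparisons (colour, asterisk: adjusted p under 0.05), the species named first being on top of the ratio. PSAD2 is lower in Mmo and Mav than in Msu at T0 (-2.38 and -1.58), and 14 members are higher in droughted Mmo than in droughted Mav at T2. PSAD2 is the rare copy, PSAD1 holding 99.9% of the PSAD counts in Mmo and in Mav at T0, and the assignment of reads between the copies was not tested.

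Clock genes, which set the daily course of LHC messages, differed between the species at the same time. At T0, 3 of 8 were higher and 4 lower in Mmo than in Mav, CCA1 averaging 227 ± 57.2 CPM in Mmo and 35.03 ± 16.95 CPM in Mav and TOC1 averaging 7.67 ± 4.12 CPM in Mmo and 155 ± 82.1 CPM in Mav. The same counts, 3 higher and 4 lower, held for Mmo over Msu, while Mav over Msu had 1 lower. Their part in the species differences of the members was not tested.

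Among rewatered plants 9 members were higher and 5 lower in Mmo than in Mav, against 29.9% and 29.4% of all features. LHCB7 was at 82.9, 62.1, 61.01 and 66.2 CPM in Mmo and 27.8, 26.5, 23.5 and 24.8 CPM in Mav (1.396 ± 0.12, adjusted p = 3.75e-05). LHCA1 was at 4539, 4775, 4790.4 and 5043 CPM in Mmo and 2019.6, 1791, 1774 and 1775 CPM in Mav (1.37 ± 0.13, adjusted p = 6.63e-05), and PSBS was higher in Mmo by 0.91. The groups were apart in all 3 genes. LHCB2.3, LHCB2.1 and LHCB4.1 were lower in Mmo by 1.29, 1.18 and 1.04, the Mmo library M25s lying above M26s, M27s and M28s in each, and LHCB4.1 overlapping with Mav. Without M25s 26 members were called, a count given without that over all features. Each species held 2 distinct profiles here, M26s, M27s and M28s being near-identical, as were A30s, A38s and A42s, and with these summed LHCB7 alone was called (adjusted p = 0.047). The Mmo libraries came from lane 7 and the Mav libraries from lanes 2 and 7. In the same pair of groups 5 of 8 clock genes and 4 of 5 senescence genes were higher in Mmo and all 4 epidermis markers lower, and their part was not tested. LHCB7 was also the member whose response to drought and rewatering differed between the species, by 1.23 ± 0.27 (Mmo minus Mav, adjusted p = 0.036), against 1.07% of all features called higher and 1% lower. In Mmo its rewatered libraries lay above the controls, which were at 30.6, 28.7, 56.9 and 32.2 CPM, and in Mav below the controls, which were at 33.7, 34.1, 28.5, 28.98 and 41.01 CPM. That call was lost without A8c, A30s, A38s, A42s, M21c, M24c, M26s, M27s or M28s, and with near-identical libraries summed, and without A40s or M22c 2 members were called.

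Msu gave no call at T1 or T2. At T1 no member had an adjusted p under 0.05 by edgeR, and none an unadjusted p under 0.05 or a call by DESeq2, against 0.137% of all features called higher and 0.0305% lower. The droughted libraries went apart, with LHCB1 at 69004, 30667 and 24319 CPM in S10s, S13s and S15s and at 58782, 39689, 46339.9 and 86867 CPM in controls. S10s had 22 members above all controls and none below, while S13s and S15s had 28 and 32 below all controls. LHCB7 was at 88.6, 67.5 and 67.3 CPM in droughted Msu and 58.2, 58.9, 63.9 and 39 CPM in controls, the single member without overlap (0.47 ± 0.25, adjusted p = 0.39). The Mmo minus Msu difference of the T1 response called no member (1 with an unadjusted p under 0.05, 0 by DESeq2), against 2.63% of all features called higher and 3.72% lower. Without S10s 1 was called.

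At T2 the libraries labelled Msu split by profile and not by label. LHCB1 was at 4270.1 and 12452 CPM in the droughted S2s and S4s, at 41530.5 and 41627 CPM in S5s and S8s, which carry the label drought, and at 33176, 43215 and 43341 CPM in controls S28c, S33c and S36c. PSBS was at 1051, 1099, 1434 and 1372 CPM in droughted libraries and 2023, 1454 and 1427 CPM in controls. No member was called by edgeR or DESeq2, none had an unadjusted p under 0.05, and 0% of all features were called in either direction. Without the 4 libraries that were near-identical across labels a single control, S28c, remained beside S2s and S4s. No member was called there, which with 1 control says nothing of the size of the response.

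For rewatered Msu every library labelled control was among those closest to Mmo. Against them 17 members were higher and 4 lower, beside 31.5% and 30.7% of all features. PSAD2 was at 13.9, 18.9, 16.3 and 18.1 CPM in rewatered Msu and 3.403, 3.66 and 4.099 CPM in the libraries labelled control, beside 1.84 to 4.53 CPM in Mmo and 12.5 to 18.97 CPM in Msu at T0. LHCB5 was at 7127, 7692, 7789 and 6910.2 CPM in rewatered plants and 2804, 3229 and 2748 CPM in the libraries labelled control (1.29 ± 0.10, adjusted p = 1.76e-05), and LHCB3 was lower by 1.083. With near-identical libraries summed 5 members were called, these 3 among them. Species and treatment cannot be told apart in this comparison.

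The single droughted Mav library at T1, A34s, allowed no test. LHCB1 stood at 32959 CPM in it and at 54976, 42599, 31485 and 51089.7 CPM in controls, and PSBS at 1123 CPM and at 1442, 1459, 1220.3 and 1304 CPM. It lay under all controls in 13 members and above them in 3, so that most members fell within the range of the controls at 50% Gs.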

How the data were processed

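RNA of mature leaves was sequenced on an Illumina platform. The authors aligned translated reads with BLAT to a minimal set of Arabidopsis coding sequences (TAIR 10), kept the best-scoring matches and deposited expected counts and TPM for each locus ID. How ties between copies were handled is not given in the sources used here, and the files hold locus IDs only, so the common gene names were added here. The deposited TPM were not proportional to CPM within a library (median ratio of TPM to CPM of 0.220 to 7.70 over the 8014 features with a median count over 500), so levels are compared within a gene.

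Expected counts were whole numbers as deposited and were used as given, with the 5 LHCB1 rows summed. Each comparison was fitted on the libraries of its own groups with edgeR 4.0.16 (R 4.3.3), using filterByExpr, TMM scaling, the quasi-likelihood test and Benjamini-Hochberg adjustment over all features tested. A call is an adjusted p under 0.05, and a stricter rule also asked for a 2-fold change. Among 19 comparisons, 8 set drought or rewatering against controls, 6 set species against each other and 5 tested differences between responses. The fold change of a first over a second group is given as log2, with its SE. Copy shares were compared by two-sided exact permutation tests. Alternatives used other scaling, no filter, DESeq2 1.42.0, limma 3.58.1 on log2(TPM + 1), summed near-identical libraries, summed copies of 7 further families, 1 fit over all groups, libraries outside lane 7 and each library left out. The procedure was tested on simulated data with 200 changed genes, the outcome of which is not given here. The simulated libraries were drawn independently, so that the test does not cover near-identical libraries.

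Every member could be named. Values in every library are given for LHCB1, PSBS and the 3 called members of lowest p in each direction, and for other members where a result turned on them, chosen after their values were seen. Genes of related lists were named for the 2 lowest p in each direction or where a result turned on them. The members and lists were chosen with earlier results of these data known. No sequences are shown.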

Additional observations from a re-analysis of the deposited data

Results flagged for a closer look

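In 14 groups of 4 or 5 libraries the highest and lowest values of 3 quantities, the summed members, LHCB1 and PSBS, were tested for standing apart from the rest, 42 checks in all (Dixon's 95% limit). Chance passes that limit in about 1 of 20 groups of independent samples, but each of the 4 groups named here held near-identical libraries, for which that rate does not hold, so the values are given as a description. The droughted Mav library A35s at T2 had 72997 CPM over all members, whereas the other 4 had 38871 to 47581 CPM. The Mmo T1 control M6c had 212503 CPM over all members (others 83179.9 to 96136 CPM), 89557 CPM of LHCB1 (others 26214 to 30294 CPM) and 2127 CPM of PSBS (others 1059 to 1208 CPM). The rewatered Mmo library M25s had 172150.0 CPM over all members (others 106367 to 110710.0 CPM), 51179 CPM of LHCB1 (others 27149 to 29546 CPM) and 2795 CPM of PSBS (others 1896 to 1919.5 CPM). The Mmo RW control M22c had the lowest PSBS, 1106 CPM (others 1758 to 1877 CPM).

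Responses that differed by an interaction test between species were those of LHCA4 (1.802) and PSAE2 (1.11) at T2 and of LHCB7 (1.23) after rewatering, each as Mmo minus Mav on the log2 scale. Between the RW and T2 responses of Mav, 27 members differed by the same kind of test, all above 0. Among the PSI antenna genes these were LHCA4 (1.63), LHCA5 (1.19) and LHCA6 (2.301). Among the PSII antenna genes they were LHCB1 (1.37), LHCB2.1 (1.47), LHCB2.3 (1.42), LHCB4.1 (1.49), LHCB4.2 (1.63), LHCB4.3 (1.58), LHCB5 (1.77) and LHCB6 (0.97), and PSBS differed by 0.81. The PSI subunits were PSAD1 (0.74), PSAE1 (1.09), PSAE2 (1.17), PSAH2 (1.48), PSAK (1.13), PSAL (1.01), PSAN (1.12) and PSAO (1.07). The PSII subunits were PSBO1 (1.25), PSBP1 (1.72), PSBQ1 (2.21), PSBQ2 (1.95), PSBW (0.89), PSBX (1.89) and PSBY (1.03).

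The single droughted Mav library at T1, which entered no test, stood above its highest control in 3 members: LHCB7 at 54.2 CPM (controls 25.3 to 53.002 CPM), PSAD2 at 8.74 CPM (controls 6.10 to 8.30 CPM) and PSBR at 8344 CPM (controls 5141 to 8282 CPM).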

How the results depend on the processing

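No paired analysis was possible because the groups compared share fewer than 2 replicate numbers. The fall of the members in Mav at T2 gave 33 to 37 calls under every alternative with 39 values (33 without lane 7, 36 to 37 with a library left out) and 30 of 31 with copies summed. Over all comparisons 169 member values were called. None turned direction under the alternatives run, and the call was lost in 214 of 1344 values under other settings and in 261 of 1746 with a library left out. The limits lie elsewhere: few distinct profiles, 2 controls of Mmo at T2, and labels of Msu in doubt. The counts given next, by setting, moved by more than 1.5 times, and the cause was not tested.

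With DESeq2 the counts of called members were 16 for Mmo T1, 5 for Mmo T2, 2 for Mmo RW, 5 for Mav RW, 14 for Mmo over Mav at T0, 18 for their T1 controls, 9 and 7 for the Mmo minus Mav response at T2 and RW, and 3 for RW minus T2 in Mmo. With near-identical libraries summed they were 0 for Mmo T1, 0 for Mmo T2, 5 for Msu RW, 4 for Mmo over Mav at T0, 2 for their T1 controls, 2 for Mmo over Msu and 1 (lower) for Mav over Msu at T0, 3 and 1 for Mmo over Mav droughted at T2 and RW, 0 and 0 for the Mmo minus Mav response at T2 and RW, and 14 for RW minus T2 in Mav. With library totals alone they were 2 for Mmo T2, 14 and 18 for Mmo over Mav at T0 and in T1 controls, 4 and 0 for the Mmo minus Mav response at T2 and RW, and 1 for Mmo minus Msu at T1. Without the filter they were 5 for Mmo over Mav at T0 and 0 for the Mmo minus Mav response at T2 and RW. With copies of 7 further families summed they were 3 for Mmo T1, 4 for Mmo over Mav at T0 and 1 for the Mmo minus Mav T2 response. In 1 fit over all groups they were 1 for Mmo RW, 5 for Msu RW, 16 for the T1 controls, 7 for Mmo over Msu and 11 for Mav over Msu at T0, 9 for Mmo over Mav at RW and 2 for the Mmo minus Mav RW response. With limma on log2(TPM + 1) they were 17 for the T1 controls and 6 for Mmo over Msu at T0.

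With each library left out, whether or not the count moved that far, it ran from 2 to 22 for Mmo T1, 0 to 10 for Mmo T2, 0 to 1 for Mmo RW and for Mav RW, 20 to 24 for Msu RW, 4 to 13 for Mmo over Mav at T0, 2 to 29 for their T1 controls, 6 to 15 for Mmo over Msu and 8 to 22 for Mav over Msu at T0, 6 to 20 and 10 to 26 for Mmo over Mav droughted at T2 and RW, 0 to 8 and 0 to 2 for the Mmo minus Mav response at T2 and RW, 0 to 1 for Mmo minus Msu at T1 and 23 to 32 for RW minus T2 in Mav. Msu T1, Msu T2 and RW minus T2 in Mmo stayed at 0. None of these counts stands beside a share of all features called in the same fit. The comparison of Msu at T2 without its 4 libraries alike across labels was added after the data had been seen and gave 0 calls, with 1 control left.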
